A study of Mus musculus with 6 samples.

Results

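The genes described here encode Siglec receptors and the phosphatase they recruit: Siglece, Siglec1, Siglecg, Siglecf, Siglech, Cd33, Cd22 and Ptpn6. They were taken by symbol from the deposited table of gene counts, which held 7 of the 8 symbols among 19309 genes. Counts of Siglech were not analysed here. The family was selected on results of the same comparison of genotypes that is described below, so the values of its members are a description and carry no p-value.

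The libraries came from bone marrow-derived macrophages of mice lacking the soluble epoxide hydrolase (sEH-/-, 3 libraries) and of wild-type mice (3 libraries). The enzyme, encoded by Ephx2, converts epoxides of polyunsaturated fatty acids to diols, and the study asked what its absence does to macrophages repolarized to a pro-resolving state. In both genotypes, bone marrow cells were differentiated over 7 days by GM-CSF plus M-CSF, then met IFN-γ and LPS for 24 h and TGF-β1 for 48 h, a sequence that yields M2c-polarized macrophages. The methods give mice of 8 to 10 weeks, doses of 15 ng/mL for each colony-stimulating factor, 10 ng/mL for LPS, 1 ng/mL for IFN-γ and 10 ng/mL for TGF-β1, and a first step of 12 h in place of 24 h. The deletion was constitutive and global, so the cells lacked the enzyme throughout differentiation as well as during polarization.

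Library totals lay between 4400197 and 6096440 counts, and levels are given as CPM, the counts scaled to a common library size. Ephx2, which checks the labels, had 4, 2 and 1 counts in sEH-/- macrophages against 26, 49 and 57 in wild-type macrophages. All 10 macrophage markers had counts, and their summed level was 2307 to 2857 CPM in sEH-/- and 2062 to 2570 CPM in wild-type macrophages. A gene was tested when its mean count was above 5 and was called at an adjusted p below 0.05 and a difference of more than 1.5-fold in either direction. In bulk RNA, fewer cells that express a gene and less RNA per cell cannot be told apart.

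Siglecs are cell surface lectins of the immunoglobulin superfamily that bind sialic acids, the sugars that cap the glycans of vertebrate cells. Most of them carry immunoreceptor tyrosine-based inhibitory motifs (ITIMs) in the cytoplasmic tail. Once phosphorylated by Src family kinases, these motifs recruit the tyrosine phosphatase SHP-1, encoded by Ptpn6, and the receptor then dampens signals from activating receptors on the same cell. Siglec1 (sialoadhesin, CD169) is an exception, since it has a long extracellular part but no ITIM and serves adhesion and uptake of sialylated particles.

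Most of the Siglec genes lie close together. Siglecf (chr7:43351341-43359531, plus strand), Siglecg (chr7:43408204-43418358, plus strand), Cd33 (chr7:43524216-43544428, minus strand) and Siglece (chr7:43651070-43660161, minus strand) follow one another in the mm10 build. Cd22 lies elsewhere on the same chromosome (chr7:30865402-30880342, minus strand), Siglec1 on chromosome 2 (chr2:131069220-131086765, minus strand) and Ptpn6 on chromosome 6 (chr6:124720707-124738714, minus strand). All 7 are protein-coding genes. RefSeq promoter windows of 250 bases before to 50 bases after the start site (GRCm38.p6, the same build) were matched for 7 of the 8 symbols, and Siglec1 had none. The window of Siglece is shown because this gene had the largest difference between genotypes of the family. Those of Cd33 and Siglecf are shown because they were the only pair among 21 compared that shared runs of at least 12 bases. Capitals mark the matches to the PU.1 core in Siglece and the shared runs in the other two. The windows are chr7:43660112-43660411 (minus strand), chr7:43533122-43533421 (minus strand) and chr7:43351091-43351390 (plus strand), each printed 5′ to 3′ on the strand of its gene. The Cd33 window reaches up to 43533421 and so lies inside the gene interval, away from its 5′ end at 43544428.
Siglece: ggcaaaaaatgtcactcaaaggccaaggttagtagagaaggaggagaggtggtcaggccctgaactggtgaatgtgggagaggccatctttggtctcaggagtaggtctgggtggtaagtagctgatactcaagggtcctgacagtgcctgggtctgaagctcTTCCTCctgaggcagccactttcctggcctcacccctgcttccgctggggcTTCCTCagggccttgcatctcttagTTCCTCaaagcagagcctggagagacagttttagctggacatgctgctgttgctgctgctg
Cd33: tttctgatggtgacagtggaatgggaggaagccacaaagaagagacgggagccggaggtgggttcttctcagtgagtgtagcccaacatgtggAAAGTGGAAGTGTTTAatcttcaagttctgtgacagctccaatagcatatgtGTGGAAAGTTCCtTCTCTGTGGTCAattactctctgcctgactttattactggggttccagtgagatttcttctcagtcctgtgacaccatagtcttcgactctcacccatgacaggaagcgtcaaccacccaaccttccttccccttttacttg
Siglecf: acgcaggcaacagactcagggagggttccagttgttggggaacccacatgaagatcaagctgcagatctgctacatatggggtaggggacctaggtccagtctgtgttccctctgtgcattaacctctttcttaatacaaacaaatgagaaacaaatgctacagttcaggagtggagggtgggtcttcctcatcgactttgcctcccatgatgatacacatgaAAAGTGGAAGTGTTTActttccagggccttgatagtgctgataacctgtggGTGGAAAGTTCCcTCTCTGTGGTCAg

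PU.1, a transcription factor of the myeloid lineage, was searched as GAGGAA on both strands. The Siglece window held 3 matches, all on the strand opposite to the gene, where they read TTCCTC in the sequence above, starting at positions -87, -36 and -11 with the start site counted as 0. At least 1 match was present in 28.3% of all 32851 windows of this length and at least 3 in 0.685%. Cd33 and Siglecf held 1 match each. The SMAD box CAGAC had 2 matches in the Siglece window and 2 in that of Siglecf, and 49.6% of all windows held at least 1. The letters of the STAT site (TTCNNNGAA), the NF-kappaB site, the AP-1 site (TGANTCA) and the interferon-stimulated response element core were found in none of the 3 windows shown. The Cd33 and Siglecf windows shared runs of 16, 12 and 12 bases in the same order, at -157, -105 and -92 in Cd33 and at -27, 24 and 37 in Siglecf. The last of these runs holds a RUNX core (TGTGGT), which occurred in 16.8% of all windows. These matches describe the sequence and do not locate binding.

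Siglece was the member with the largest difference. It encodes Siglec-E, an ITIM-bearing receptor of mouse neutrophils, monocytes and macrophages. In the sEH-/- group 115, 90 and 99 counts fell on the gene, and in the wild-type group 8, 15 and 22. As levels, this was 19.6, 18.1 and 22.9 CPM against 1.76, 2.43 and 3.94 CPM, so the lowest sEH-/- library was far above the highest wild-type library. The mean levels were 20.2 ± 2.45 CPM with sEH deletion and 2.71 ± 1.12 CPM without it (SD, n = 3 each). The log2 fold change was 2.87 (SE 0.27), which is 7.30-fold with a 95% interval of 4.85 to 11.0. The 304 counts in all sEH-/- libraries against 45 in all wild-type libraries gave a ratio of 7.28 after scaling by library size, with an exact interval of 5.31 to 10.2 that covers counting error only. Siglece was the only member that was called, and it was called in each of the 15 alternative analyses that could test it. Among these, the call by adjusted p alone used the same fit and could not have lost it.

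**Figure D1:**
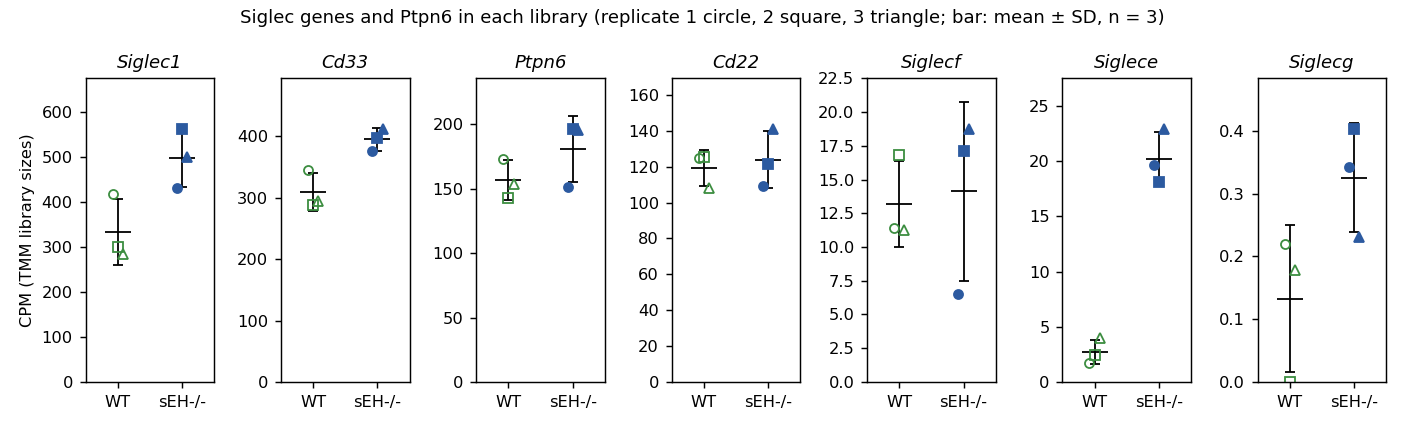
Level of each measured member in every library, in CPM on an axis that starts at 0 and is scaled separately for each gene (green open symbols, wild-type; blue filled symbols, sEH-/-; bars, mean ± SD of 3 libraries). The Siglece values of 18.1 to 22.9 CPM in sEH-/- lie apart from 1.76 to 3.94 CPM in wild-type, while Cd22, Siglecf and Ptpn6 overlap.

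Because Siglec-E is also a neutrophil receptor, neutrophil transcripts were read beside it. Of 11 neutrophil markers, 8 had a row in the table, and 6 of these, among them S100a9, Ngp, Elane and Cxcr2, did not exceed 10 counts in any library. Together these 6 had 26, 12 and 11 counts in the sEH-/- group and 2, 10 and 6 in the wild-type group. The groups did not overlap, but only by 11 against 10 counts. Of all tested genes, 11.8% had each sEH-/- library above each wild-type library. Camp, an antimicrobial peptide of neutrophil granules, had 10, 3 and 4 counts against 1, 1 and 1. The summed level of the list was 284 to 359 CPM in sEH-/- and 265 to 317 CPM in wild-type libraries, nearly all of it from Mmp8 and S100a8. S100a8, a calcium-binding protein that activated macrophages also make, had a log2 fold change of 0.54 with an adjusted p of 0.057. Mmp8, the larger part of that sum, had 0.15 (SE 0.11, adjusted p = 0.44), and its groups overlapped. The few counts of S100a9 and Cxcr2 overlapped as well. The part of neutrophils in the Siglece values was not tested.

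Cd33 encodes a myeloid Siglec whose mouse form differs from human CD33 in its cytoplasmic tail. It was present at 376, 397 and 412 CPM in sEH-/- and at 345, 288 and 295 CPM in wild-type libraries. Each sEH-/- library was above each wild-type library, and wild-type replicate 1 was the nearest to them. The means were 395 ± 18.1 CPM and 310 ± 31.2 CPM (SD, n = 3 each), and the log2 fold change was 0.35 (SE 0.09, 95% interval 0.15 to 0.55). The interval stayed above 0, but the gene met neither threshold of a call. The fold was 1.28, with an interval of 1.11 to 1.47.

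Cd22 encodes the ITIM-bearing receptor best known from B cells, where it sets the threshold of the antigen receptor. Its level was 109, 121 and 141 CPM in sEH-/- and 125, 126 and 108 CPM in wild-type libraries. The groups overlapped, the log2 fold change was 0.05 (SE 0.10, 95% interval -0.17 to 0.27), and the sign turned when sEH-/- replicate 3 (-0.04) or wild-type replicate 3 (-0.02) was left out. Transcripts that define B cells were nearly absent from the same libraries. Cd79b, Pax5, Ebf1 and Fcrla reached at most 1.62 CPM in sum in any library, and the other 4 markers of the list had no row, among them Cd79a and Ms4a1. Siglecg, the other B cell Siglec, had 2, 2 and 1 counts with sEH deletion against 1, 0 and 1 without. It was below the filter, and its 5 counts against 2 gave a ratio of 2.70 with an interval of 0.44 to 28.3, so no difference was detectable at this depth.

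Siglecf encodes Siglec-F, the ITIM-bearing receptor of mouse eosinophils and alveolar macrophages. It was measured at 6.49, 17.1 and 18.7 CPM in sEH-/- and at 11.4, 16.8 and 11.3 CPM in wild-type libraries. The lowest and the highest value both belonged to the sEH-/- group, and the coefficient of variation between replicates (0.276) was higher than in 95.5% of all tested genes. The log2 fold change was 0.06 (SE 0.34) with a 95% interval of -0.69 to 0.82, which leaves room for a change of more than 1.5-fold in either direction. It turned negative in 5 alternative analyses. The eosinophil markers Prg3, Epx and Il5ra had no row, and the eosinophil list summed to 22.5 to 37.3 CPM in sEH-/- and 27.0 to 31.9 CPM in wild-type libraries, mostly from Ear2. Of 10 alveolar macrophage markers, 8 had counts, with sums of 544 to 787 CPM and 628 to 690 CPM. Within that list Pparg, a nuclear receptor needed for alveolar macrophage development, was lower in sEH-/- (log2 fold change -0.77, adjusted p = 0.048). The other 7 were not called and lay on both sides of 0, from Krt79 with -1.13 to Car4 with 0.68, and the median of the 8 was -0.06. The part of these cell types in the Siglecf values was not tested.

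Siglec1, which lacks an ITIM and is known as an interferon-induced gene of macrophages, had a level of 431, 561 and 499 CPM in sEH-/- and 418, 300 and 283 CPM in wild-type libraries. The groups did not overlap, although wild-type replicate 1 came close to sEH-/- replicate 1. The means were 497 ± 65.4 CPM and 334 ± 73.2 CPM (SD, n = 3 each), with a log2 fold change of 0.58 (SE 0.15, 95% interval 0.25 to 0.91). This met neither threshold of a call, and the gene was called in 3 of 16 alternatives. These left out wild-type replicate 1 (0.77) or sEH-/- replicate 1 (0.67), or corrected the counts for the ceiling that duplicate removal sets on abundant genes (0.68). With another library left out it was 0.47 to 0.58 and was not called.

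Ptpn6 encodes SHP-1, the phosphatase through which the ITIM-bearing Siglecs signal. Its level was 151, 196 and 195 CPM in sEH-/- and 173, 143 and 154 CPM in wild-type libraries, and the groups overlapped. The log2 fold change was 0.21 (SE 0.11), and the 95% interval of -0.04 to 0.45 excluded a 1.5-fold change but not a smaller one.

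Over the family, 1 of the 6 tested members was called higher in sEH-/- and 0 were called lower, where 1.51% of all 13785 tested genes were called higher and 1.1% lower. In 3 of the 6, each sEH-/- library was above each wild-type library, compared with 11.8% of all tested genes. All 6 log2 fold changes were above 0 with a median of 0.28, and 49.8% of all tested genes were above 0. The 10 macrophage markers were also all above 0, with a median of 0.17, and 0 of them were called. Among the 4296 tested genes with at least 0.1 counts per exonic base, the range in which Siglec1, Ptpn6, Cd33 and Cd22 lie, 58.2% were above 0 and 12.3% had each sEH-/- library above each wild-type library. As the members were selected on this comparison, nothing is read from these shares. Outside the call, the member nearest to it was Siglec1 with 0.58, which also missed the adjusted p, and no member lay just inside.

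**Figure D2:**
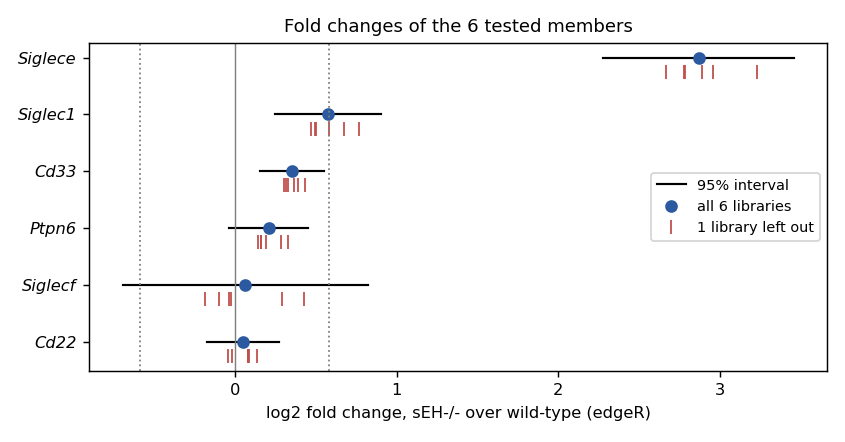
Log2 fold change of the 6 tested members, sEH-/- over wild-type (blue points), with 95% intervals from edgeR (black lines) and the values with 1 library left out (red ticks); dotted lines mark a 1.5-fold change in each direction. Siglece at 2.87 stays beyond the threshold in every analysis drawn, Siglec1 at 0.58 sits on it, and the Siglecf interval runs from -0.69 to 0.82.

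Levels of different genes were compared per kilobase of exon. In wild-type macrophages Ptpn6 had the highest level, 55.9 CPM per kilobase, followed by Siglec1 with 46.7, Cd33 with 39.9, Cd22 with 23.7, Siglecf with 4.72, Siglece with 1.46 and Siglecg with 0.028 CPM per kilobase. Ptpn6 and Siglec1, and likewise Siglec1 and Cd33, overlapped over the 3 libraries, whereas the later neighbours in this order did not. In sEH-/- macrophages Siglec1 came first with 69.6 CPM per kilobase and overlapped with Ptpn6 at 64.6. Cd33 followed with 50.8, Cd22 with 24.6, Siglece with 10.9, Siglecf with 5.06 and Siglecg with 0.068 CPM per kilobase, and none of these overlapped with its neighbour. Siglece and Siglecf therefore changed places between the genotypes. This exchange was also seen with the length of the longest transcript, which instead put Cd33 before Siglec1 in wild-type and Ptpn6 before Siglec1 in sEH-/- macrophages.

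The 6 measured Siglec genes summed to 143, 170 and 170 CPM per kilobase in sEH-/- and to 133, 111 and 105 in wild-type libraries. Siglece made up 7.41%, 5.77% and 7.29% of this sum in sEH-/- against 0.72%, 1.18% and 2.02% in wild-type libraries. Even in the sEH-/- libraries it thus remained a minor Siglec transcript. Siglec1 took 43.1 ± 2.76% against 39.8 ± 3.66%, and Cd33 took 31.7 ± 1.87% against 34.3 ± 1.56% (SD, n = 3 each). The share of Cd22 was 15.3 ± 1.14% in sEH-/- and 20.5 ± 1.86% in wild-type libraries, without overlap, at nearly equal levels of the gene itself.

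**Figure D3:**
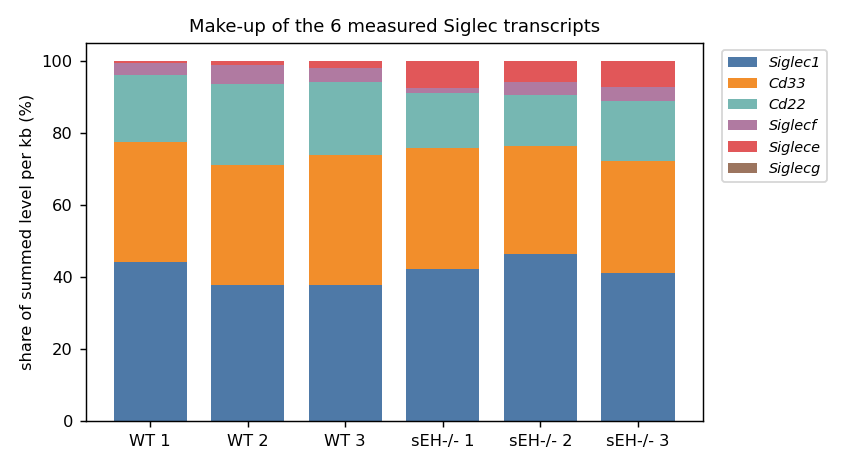
Share of each Siglec gene in the summed level per kilobase of the 6 measured Siglec genes, in percent, for each library. Siglec1 and Cd33 make up most of every bar, and the Siglece share is 5.77% to 7.41% in the sEH-/- libraries and 0.72% to 2.02% in the wild-type libraries.

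The other genes of the pathway were read from lists of sialic acid and Siglec biology. Of 89 listed genes, 79 had a row and 72 were tested, and 4 of them were called higher and 0 lower in sEH-/- macrophages, beside 1.51% and 1.1% of all tested genes. By the adjusted p alone, 7 were higher and 2 lower, beside 2.39% and 1.62% of all tested genes. The median log2 fold change of the 72 genes was 0.12, and 79.2% of them were above 0. Of all tested genes 49.8% were above 0, and 58.2% of the tested genes with at least 0.1 counts per exonic base. In 25 of the 72 genes each sEH-/- library was above each wild-type library and in 3 below, where the shares over all tested genes were 11.8% and 14.5%. As the lists were chosen with earlier results of these data known, nothing is read from these shares.

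Of the 16 tested inhibitory receptors outside the Siglec family, 3 were called higher in sEH-/- macrophages and 0 lower, where the shares over all tested genes were 1.51% and 1.1%. Of the 16, 15 were above 0, compared with 49.8% of all tested genes. In 6 of the 16 each sEH-/- library was above each wild-type library, where the share over all tested genes was 11.8%. Lair1, a collagen receptor with ITIMs, was at 119, 189 and 146 CPM in sEH-/- against 107, 61.7 and 77.1 CPM in wild-type libraries. The difference on the log2 scale was 0.89 (SE 0.20, adjusted p = 0.040). Lair1 is one of the genes in a heat map that the study drew from these same samples, so its direction is not independent evidence. Pilra, an inhibitory receptor that binds O-glycosylated proteins carrying sialic acid, was at 101, 143 and 110 CPM against 70.0, 61.9 and 73.7 CPM. The difference was 0.79 (SE 0.13, adjusted p = 0.017), and the groups did not overlap. Clec4a2, an ITIM-bearing C-type lectin of myeloid cells, was at 66.1, 92.1 and 88.4 CPM against 59.0, 47.0 and 54.2 CPM, a difference of 0.62 (SE 0.13, adjusted p = 0.034). The other 13 receptors were not called, among them Sirpa, the receptor for CD47 and the one with the highest mean count, with 0.19 (SE 0.11, adjusted p = 0.33). Clec4a1 had the largest difference of the 16, 1.14 (SE 0.29, adjusted p = 0.054), and Clec12a had 0.66 (SE 0.17, adjusted p = 0.056). Both passed the fold change threshold without overlap but missed the adjusted p.

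In the list of sialic acid removal and modification, 1 of 7 tested genes was called higher and 0 lower. Over all tested genes the shares were 1.51% and 1.1%. Casd1, the enzyme that adds O-acetyl groups to sialic acid, was at 72.6, 95.9 and 64.6 CPM in sEH-/- and at 56.6, 32.6 and 40.3 CPM in wild-type libraries (log2 fold change 0.87, SE 0.19, adjusted p = 0.040). The lysosomal sialidase Neu1 had 0.06 (SE 0.07, adjusted p = 0.62). Of 5 tested genes of sialic acid synthesis none was called. Gne, the enzyme at the entry to sialic acid synthesis, was at 46.8, 40.7 and 51.6 CPM in sEH-/- and at 57.9, 76.9 and 66.6 CPM in wild-type libraries. Its log2 fold change of -0.54 passed the adjusted p (0.041) but not the fold change threshold. Cmas, which activates sialic acid for transfer, had 0.03 (SE 0.09, adjusted p = 0.89). Among 9 tested sialyltransferases none was called, and St8sia4, a polysialyltransferase with the highest mean count, had -0.14 (SE 0.13, adjusted p = 0.58). St6galnac4 passed the adjusted p alone with -0.26 (adjusted p = 0.048).

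None of the 20 tested phosphatases, kinases and partners of ITIM signalling was called. Ptpn11, which encodes the related phosphatase SHP-2, differed by 0.07 on the log2 scale (SE 0.07, adjusted p = 0.56). Syk, a kinase of activating receptors and the gene of this list with the highest mean count, had -0.03 (SE 0.09, adjusted p = 0.89). Plcg2, a phospholipase downstream of Syk, passed the adjusted p alone with 0.39 (SE 0.07, adjusted p = 0.026). The activating adaptors, among them Tyrobp (DAP12), the partner of Siglec-H, were not called either (0 of 3). Fcer1g, the adaptor with the highest mean count, had 0.13 (SE 0.12, adjusted p = 0.57). Of the sialylated carriers, 0 of 11 were called, and Ptprc (CD45) had 0.28 (SE 0.09, adjusted p = 0.11). Mag, the myelin Siglec, was the only other Siglec gene tested, with 92, 100 and 65 counts in sEH-/- against 62, 67 and 72 in wild-type (log2 fold change 0.45, SE 0.18, adjusted p = 0.17).

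**Figure D4:**
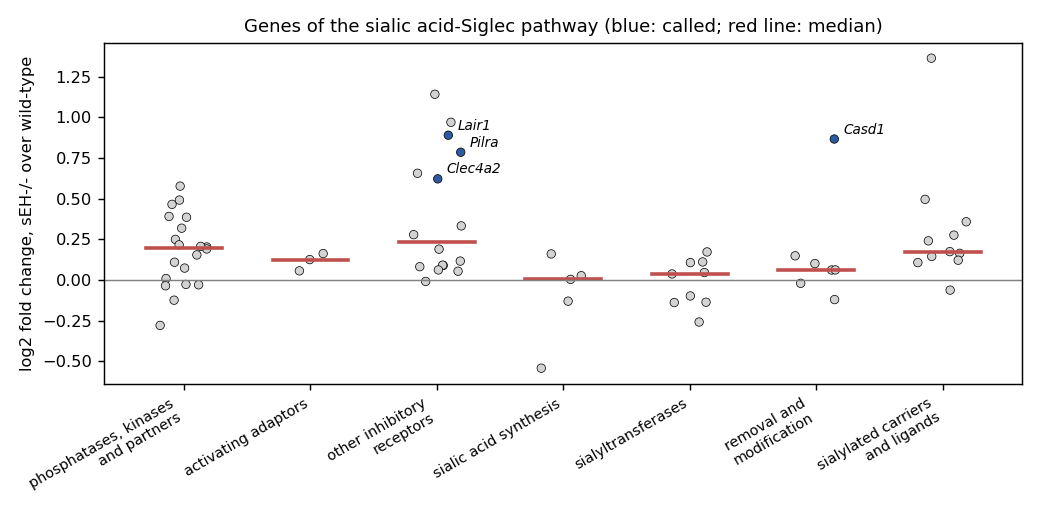
Log2 fold change (sEH-/- over wild-type) of each tested gene in 7 lists of sialic acid and Siglec biology, with points spread sideways for legibility; blue points are called genes and red lines are medians. The called genes are Lair1 (0.89), Pilra (0.79), Clec4a2 (0.62) and Casd1 (0.87).

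The calls outside the family were less stable than that of Siglece. Without wild-type replicate 2 or wild-type replicate 3, 0 of the 72 pathway genes were called, without sEH-/- replicate 2 only 1, and without replicate 1 of either genotype 8.

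Genes around Siglece on chromosome 7 were listed for context. The nearest tested genes toward lower coordinates were Zfp719, which differed by 0.01 on the log2 scale (SE 0.10, adjusted p = 0.97) and whose sign turned in 4 alternatives, and Zfp658, with 200, 200 and 152 counts in sEH-/- against 102, 87 and 103 in wild-type. Zfp658 was higher in sEH-/- macrophages by 1.01 on the log2 scale (SE 0.17, adjusted p = 0.018), although its call was lost without wild-type replicate 2 (adjusted p = 0.074) or wild-type replicate 3 (adjusted p = 0.12). Toward higher coordinates, Ctu1, a gene of tRNA modification, had 0.24 (SE 0.14, adjusted p = 0.35) and Klk1b1, a kallikrein, had 0.99 (SE 0.49, adjusted p = 0.26). Zfp719 lies between Zfp658 and Siglece. Within 500 kb, a window chosen after the values were seen, 11 genes besides Siglece were tested, Cd33 and Siglecf among them, and 2 were called higher and 0 lower (1.51% and 1.1% of all tested genes). All 11 log2 fold changes were above 0, with a median of 0.41, where 49.8% of all tested genes were above 0. In 5 of the 11 each sEH-/- library was above each wild-type library, compared with 11.8% of all tested genes. Beside Zfp658, the called gene was Iglon5, with 17, 24 and 11 counts against 1, 2 and 7 (2.45, SE 0.54, adjusted p = 0.039). Klk1b11 had 1.54 (SE 0.46, adjusted p = 0.078) without overlap and was not called.

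**Figure D5:**
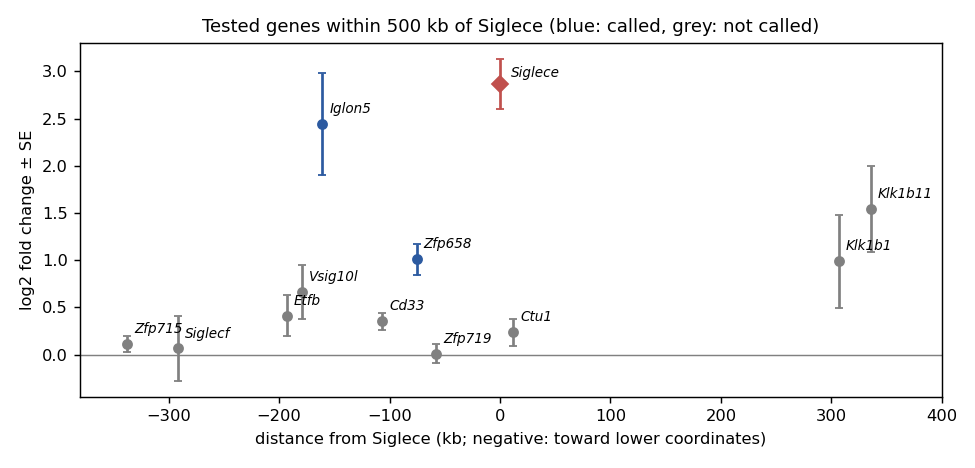
Log2 fold change (± SE) of the tested genes within 500 kb of Siglece against their distance from it in kilobases. Siglece (red diamond, 2.87), Iglon5 (2.45) and Zfp658 (1.01) are higher in sEH-/-, while Zfp719 (0.01) and Ctu1 (0.24), the nearest genes on the 2 sides, are not called.

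The genes whose levels followed Siglece most closely were ranked over the 10276 genes whose mean count reached 50, by Pearson's r of log2 CPM over the 6 libraries. They were AI480526 (r = 0.988), Spaca6 (r = 0.985), Mtx2 (r = 0.984), Chaf1a (r = 0.983) and Vps53 (r = 0.982). These points share libraries and depth, and the genotype difference itself sets most of the spread of Siglece. Of the 5, Spaca6 was called (log2 fold change 0.61, adjusted p = 0.048), while Mtx2 and Vps53 differed by 0.08 and 0.09. Within the family, r with Siglece was 0.82 for Cd33, 0.71 for Siglec1, 0.51 for Ptpn6, 0.12 for Cd22 and -0.007 for Siglecf.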

How the data were processed

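RNA of M2c-polarized macrophages was sequenced in 3 sEH-/- and 3 wild-type libraries. The authors deposited raw gene counts, not normalized. Per the processing notes they used Trimmomatic 0.39, STAR 2.7.7a, Picard 2.21.7 and featureCounts 1.6.5 with mm10; the methods name other versions and another library kit. Duplicates and multi-mapping reads were removed and exonic reads counted by strand, so near-identical stretches of Siglec paralogs are not counted. Duplicate removal also compressed abundant genes: no gene exceeded 0.989 counts per exonic base in a library, and 11.0% of tested genes exceeded 0.2.

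The analysis used edgeR 4.0.16 in R 4.3.3 (quasi-likelihood test after TMM scaling, without covariates), on genes with a mean above 5 counts, with Benjamini-Hochberg adjustment over 13785 genes. The filter and the thresholds of a call (adjusted p below 0.05, 1.5-fold) follow the study. CPM use TMM-scaled library sizes. Exonic lengths are unions of exons in GENCODE M21. The common coefficient of variation was 0.0866. The model was tested on simulated data. Alternatives were DESeq2 1.42.0, limma-voom 3.58.1, other normalizations and filters, each library left out, a replicate block, calls by adjusted p alone, longest transcript lengths, and a ceiling correction chosen after seeing the data.

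The members and lists were chosen with earlier results of these data known. Named genes are the members, every called pathway gene, the pathway gene of highest mean count in lists without a call, the 5 genes most like Siglece, the 2 nearest tested genes on each side of it, Ephx2 and markers beside a member. Sirpa, Neu1, Ptpn11, Plcg2, Gne, St6galnac4, Iglon5 and Klk1b11 were added after their values were seen. The labels do not say that replicates came from separate mice, but the study gives 3 mice per group for this comparison. Precision is limited by 3 libraries per genotype.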

Additional observations from a re-analysis of the deposited data

How the results depend on the processing

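Siglece was called in 15 of 15 alternatives (log2 fold change 2.67 to 3.23), counting the call by adjusted p alone, where a call cannot be lost. The 360 genes called became 553 without a fold change threshold, and 6 to 625 with 1 library left out. The 4 pathway calls became 9 without the threshold, and 0 to 8 with 1 library left out. The 1 member called became 0 with at least 10 counts required in every library, because Siglece, with 8 in 1 wild-type library, was then not tested. It became 2 with the ceiling correction, which added Siglec1 (0.68), and 1 to 2 with 1 library left out, where Siglec1 ranged from 0.47 to 0.77. Siglecf turned to -0.11 with limma-voom and ranged from -0.18 to 0.43 with 1 library left out (-0.10 and -0.18 when sEH-/- replicate 2 or 3 was dropped, -0.02 and -0.04 for wild-type replicate 1 or 3). Cd22 ranged from -0.042 to 0.13, with -0.02 without wild-type replicate 3. Zfp719 turned to -0.013 without TMM factors and ranged from -0.052 to 0.070 with 1 library left out (-0.024 and -0.020 for wild-type replicate 1 or 3). Cd33 (0.30 to 0.44) and Ptpn6 (0.15 to 0.33) were above 0 in all 16 alternatives and called in none. The causes were not tested. With the longest transcript, wild-type levels per kilobase were 54.1 for Cd33, 30.1 for Cd22 and 67.9 for Ptpn6.

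Lair1 lost its call with DESeq2 (adjusted p = 0.052). With a replicate block, 234 genes and 2 pathway genes were called, and Lair1 and Clec4a2 were not (adjusted p = 0.054 and 0.052). Same-numbered libraries did not deviate together (r = -0.22, -0.458 and -0.0629 over 10277 genes), so the numbers are not taken to pair them. At 8 to 22 counts in wild-type libraries, the fold change of Siglece is less precise than its presence in sEH-/- libraries.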

Other observations

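Ly6c2, a surface protein of inflammatory monocytes that is also high in plasmacytoid dendritic cells, was read among the markers of the cells known for Siglech. It was at 34.2, 45.5 and 47.7 CPM in sEH-/- and at 20.0, 14.7 and 19.2 CPM in wild-type libraries (log2 fold change 1.24, adjusted p = 0.011 by edgeR). Of the other markers of that list, Tcf4 (0.14), Cox6a2 (0.09), Ccr9 (-0.43) and Pacsin1 (-0.54) were not called, and Klk1, Ly6d and Spib had no row. Ear6, an eosinophil-associated ribonuclease, was at 4.10, 2.22 and 3.01 CPM in sEH-/- against 5.93, 9.88 and 10.02 CPM in wild-type libraries (-1.46, adjusted p = 0.035), while Ear2 was not called (0.24, adjusted p = 0.55). Multi-mapping reads were removed, so stretches that Ear genes share with near-identical copies are not counted.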
